A study of Mus musculus with 16 samples.

Results

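Chromatin accessibility was compared between germinal center B cells labelled CC and those labelled CB in mice heterozygous for Smarca4. The comparison set 4 HET CC libraries against 4 HET CB libraries, which are 8 of the 16 libraries of the series, and every one of the 82188 peaks was fitted on these 8 libraries alone. HET stands for the genotype Smarca4+/-. All groups came from the spleen of C57BL/6 mice aged 8 to 10 weeks. The other 8 libraries, CB and CC of Smarca4+/+ (WT) mice, entered only where the change from CB to CC was compared between genotypes. How the Smarca4 allele was made, which part of the gene it lacks, how the animals were immunised and how CB and CC were sorted were not stated in the sources used here. CB and CC were read as centroblasts and centrocytes, the latter being a word the series title uses.

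In a germinal center, centroblasts divide in the dark zone and mutate their antibody genes. Centrocytes of the light zone capture antigen, present it to follicular helper T cells and are selected to return to the dark zone, to become memory cells or to become plasma cells. Smarca4 encodes BRG1, the ATPase that drives the BAF nucleosome remodeling complex, which opens enhancers and promoters for transcription factors. Omni-ATAC cuts open chromatin with a transposase, so the number of fragments in a peak reads how open that stretch of DNA was. It does not measure RNA or protein.

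The HET CB libraries held 38716281 to 51011923 counts in peaks and the HET CC libraries 5310327 to 7474760, with medians of 263 to 347 and 35 to 50 counts per peak. Replicates correlated at 0.988 to 0.991 in CB and 0.916 to 0.941 in CC over peaks (Pearson's r of log2 values). Nothing in the labels ties a replicate to its own animal, so p-values here reflect how far these samples scatter, and that scatter may be technical. Values are CPM, counts scaled to a common library total after adjustment of the totals by trimmed means of M-values (TMM). The value of a gene is the sum over the peaks assigned to it, the nearest protein-coding gene within 50 kb, and therefore describes the chromatin around a gene. A peak or gene is called higher or lower where the adjusted p of the edgeR quasi-likelihood test lies below 0.05, with adjustment by Benjamini and Hochberg across every peak or gene tested. The fit estimates 1 dispersion per feature for both groups. Over peaks the biological coefficient of variation was 5.6% in CB, 15.2% in CC and 7.6% for both together. For genes it was 3.3%, 8.2% and 4.8%. SEs and p-values may therefore understate the scatter among CC libraries, and the effect on the calls was not tested. Over the genes called higher, the HET CC libraries 1 to 4 lay at a median log2 of 0.48, 0.43, 0.50 and 0.40 above the CB mean, and over the genes called lower at -0.41, -0.33, -0.42 and -0.31. HET CC replicates 1 and 3 thus lay further from CB than replicates 2 and 4, in both directions. Replicates 1 and 3 were also the shallower ones, at 5834594 and 5310327 counts, against 7474760 and 6368844 in replicates 2 and 4. The part of depth in this order was not tested.

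Most peaks differed between the cell labels. Of 82132 peaks tested, 48952 (59.6%) were called, 25386 (30.9%) higher in CC and 23566 (28.7%) lower. The rises were larger than the falls. The median log2 change was 0.97 among peaks called higher and -0.63 among those called lower. A difference of 2-fold or more was reached by 12374 higher peaks (15.1%) against 4195 lower ones (5.11%), 4-fold or more by 5955 against 58, and 8-fold or more by 1580 against 0. For 42355 peaks (51.6%) the 4 CC values did not overlap the 4 CB values. Summed per gene, 4760 of 15047 genes (31.6%) were higher in CC and 4879 (32.4%) lower, together 64.1%. Of these, 1131 (7.52%) were higher and 156 (1.04%) lower by 2-fold or more, and the library values of 8555 genes (56.9%) did not overlap. These shares are the background against which every count of members below has to be read.

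The direction of change went with the mean accessibility of a peak. That mean is the edgeR average log2 CPM of the same 8 libraries, in which the deeper CB libraries weigh more. A peak higher in CC therefore ranks lower than by a plain mean, and a peak lower in CC ranks higher. How much of the pattern below this made was not tested. In the least accessible quintile of peaks, 66.8% were higher in CC and 3.8% lower, with a median log2 change of 1.33. Shares then moved towards falls, to 29.4% and 16.5% in the next quintile, 18.8% and 34.9% in the middle one and 11.8% and 52.5% in the one above it, where the median was -0.30. The most accessible quintile had 27.6% higher and 35.8% lower. Within that top quintile, the peaks near gene ends went the other way from the rest, with 35.7% higher and 25.6% lower, against 17.2% higher and 48.7% lower inside genes. Genes showed a like pattern in their lowest quintile, with 47.6% higher and 9.87% lower. CC was the shallower group, and the part of depth in this pattern was not tested. With all 8 libraries thinned to 5310327 counts, 18728 peaks were higher and 16934 lower. These totals were not split by quintile, so they do not address the pattern.

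**Figure D1:**
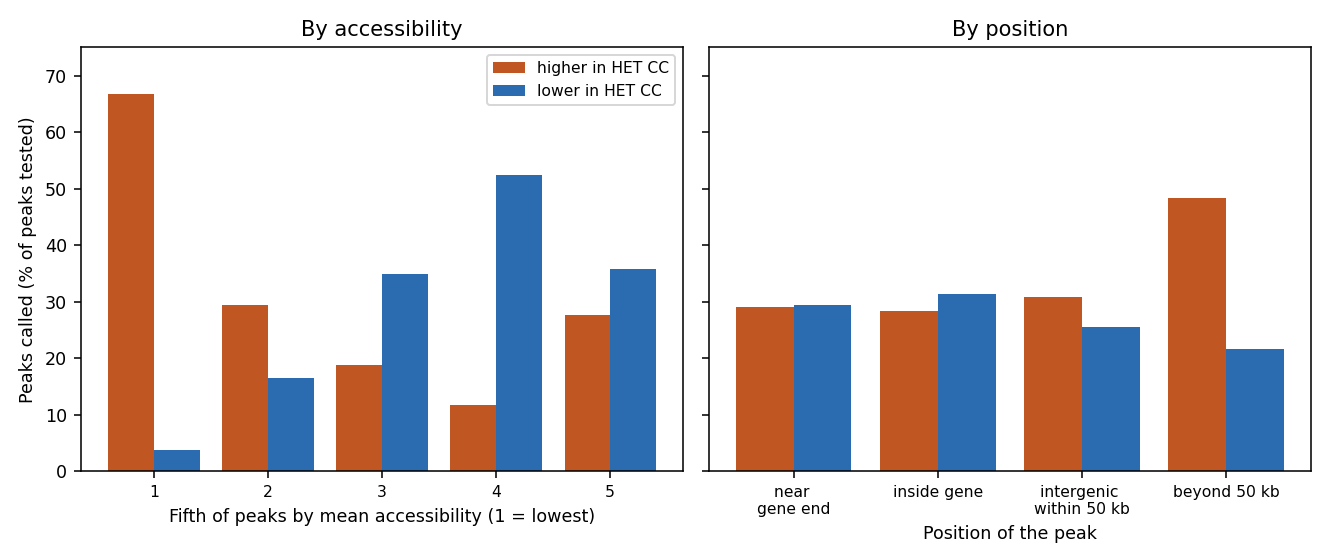
Share of the tested peaks called in either direction between HET CB and HET CC (percent, y axis). Peaks are in quintiles by mean accessibility, in which the deeper CB libraries weigh more (left), or grouped by position relative to genes (right). The least accessible quintile has 66.8% higher and 3.8% lower peaks, and peaks beyond 50 kb from any gene have 48.4% higher and 21.7% lower.

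Over all peaks, those far from genes were the most often higher. Of 7397 peaks beyond 50 kb from a protein-coding gene, 48.4% were higher in CC and 21.7% lower, with a median log2 change of 0.38. This went with their mean accessibility, under the same limit. Of them, 2801 lie in the least accessible quintile, where 78.9% of them were higher. In the most accessible quintile 18.2% were higher, against 35.7% near gene ends. The 17727 peaks within 1 kb of a gene end, meaning either end of the gene, split evenly by calls, at 29.0% higher and 29.4% lower. The 37297 peaks inside genes had 28.3% higher and 31.4% lower. At 2-fold or more, 949 were higher and 280 lower near gene ends, and 5918 higher and 2353 lower inside genes. Measured as a share of all counts, peaks near gene ends took 42.01%, 42.77%, 42.57% and 42.56% in the HET CB libraries and 44.89%, 44.30%, 44.84% and 44.36% in the HET CC libraries. Every CC library lay above every CB library, a difference of 2.12 percentage points (two-sided exact permutation test, p = 0.0286, the smallest that 70 splits allow, n = 4 and 4). Counts inside genes moved the other way, from 35.55% ± 0.13 to 33.43% ± 0.33 (SD, n = 4).

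Neighbouring peaks tended to move together. Where adjacent peaks on a chromosome were both called, their directions were the same in 88.7% of pairs up to 1 kb apart, 84.8% at 1 to 5 kb, 77.2% at 5 to 20 kb, 76.7% at 20 to 100 kb and 81.6% over 100 kb. Pearson's r of their log2 changes, a description across peaks that are not independent, fell from 0.81 at up to 1 kb to 0.24 beyond 100 kb. Opposite changes within a locus were common all the same. Among 9055 genes with 3 or more peaks, 3776 (41.7%) held both a peak called higher and one called lower, 519 had all peaks higher and 190 all peaks lower. For 1525 of the mixed loci the sum over the gene was not called, so a gene value near 0 can hide opposite changes.

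Among genes of above-median accessibility, the largest openings were at loci where nearly all peaks rose. Less accessible genes reached larger folds, up to log2 4.57. Slc16a7, a monocarboxylate transporter, had 16.6, 14.7, 16.9 and 15.7 CPM in the CB libraries and 175, 125, 183 and 127 in the CC libraries. The groups lay far apart, 9.49-fold by the fit (log2 3.25, SE 0.11, adjusted p = 3.6e-12), and all 11 peaks of the locus were higher. Dse, an epimerase of dermatan sulfate synthesis, had 18.4, 17.4, 19.1 and 16.3 CPM in CB and 126, 101, 135 and 91.6 in CC. It rose 6.35-fold (log2 2.67, SE 0.10, adjusted p = 1.33e-12), again at every one of its 13 peaks. Prkch, the eta isoform of protein kinase C, had 30.1, 25.9, 28.6 and 25.4 CPM in CB against 139, 122, 167 and 108 in CC (log2 2.28, SE 0.10, adjusted p = 6.45e-11), and 21 of its 23 peaks were higher. Fyb, an adaptor that links antigen receptor signals to integrins, had 27.1, 21.0, 24.1 and 22.7 CPM in CB against 125, 101, 107 and 80.1 in CC (log2 2.12, SE 0.11, adjusted p = 2.27e-10). Each of these loci was several times more open in every CC library than in any CB library.

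The next rises were Chrm3, a muscarinic acetylcholine receptor, at log2 1.96 (23 of 23 peaks higher), Itga9, an integrin subunit, at 1.90 (20 of 20), and Tent5a, a poly(A) polymerase, at 1.81 (5 of 5). Sash1, a signaling scaffold, reached 1.79 (17 of 17), Chn2, a GTPase-activating protein for Rac, 1.76 (14 of 14), and Cobll1, an actin regulator, 1.74 (16 of 16). These 10 genes are the largest rises among called genes of above-median accessibility whose library values do not overlap. Selected in that way, their size is a description. Each was also higher in CC among WT libraries, by log2 1.52 to 2.99. No difference between the genotypes passed the test for any of them (adjusted p from 0.189 to 0.974). Markers of T, NK and myeloid cells, given below, mostly rose in the same HET CC libraries. Their part in these rises was not tested.

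Falls were smaller. Tgfa, a ligand of the epidermal growth factor receptor, had 79.7, 77.7, 74.96 and 78.5 CPM in the CB libraries and 17.97, 30.1, 20.9 and 35.4 in the CC libraries. It fell by 1.55 on the log2 scale (SE 0.12, adjusted p = 2.08e-08), a 2.93-fold difference, with all 6 peaks lower. Dusp14, a phosphatase of MAP kinases, had 124, 124, 124 and 133 CPM in CB against 44.4, 46.98, 43.9 and 56.2 in CC (log2 -1.40, SE 0.063, adjusted p = 1.5e-13). Dnase1, a secreted nuclease, had 137, 145, 143 and 143 CPM in CB against 50.3, 65.5, 38.96 and 66.4 in CC (log2 -1.34, SE 0.099, adjusted p = 1.31e-08). The CB values of these loci lay close together, and the CC values scattered more. The other falls chosen by the same rule were Ccdc190 (-1.38), Pm20d1, an enzyme of N-acyl amino acids (-1.35), Cfap74, a cilium protein (-1.24), and Dkk3, of the Dickkopf family (-1.20, 11 of 11 peaks lower). Zfp957, a zinc finger gene, was at -1.20 (9 of 10 peaks lower), Slc9c1, of the sodium-proton exchanger family, at -1.19, and Hmx2, a homeobox factor, at -1.13. In all 20 loci of the plot of library values, HET CC replicates 1 and 3 lay further from the CB mean than replicates 2 and 4. The 10 falls were also lower in CC among WT libraries, by log2 -1.22 to -1.85, with adjusted p of the difference between genotypes from 0.0654 to 0.945.

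**Figure D2:**
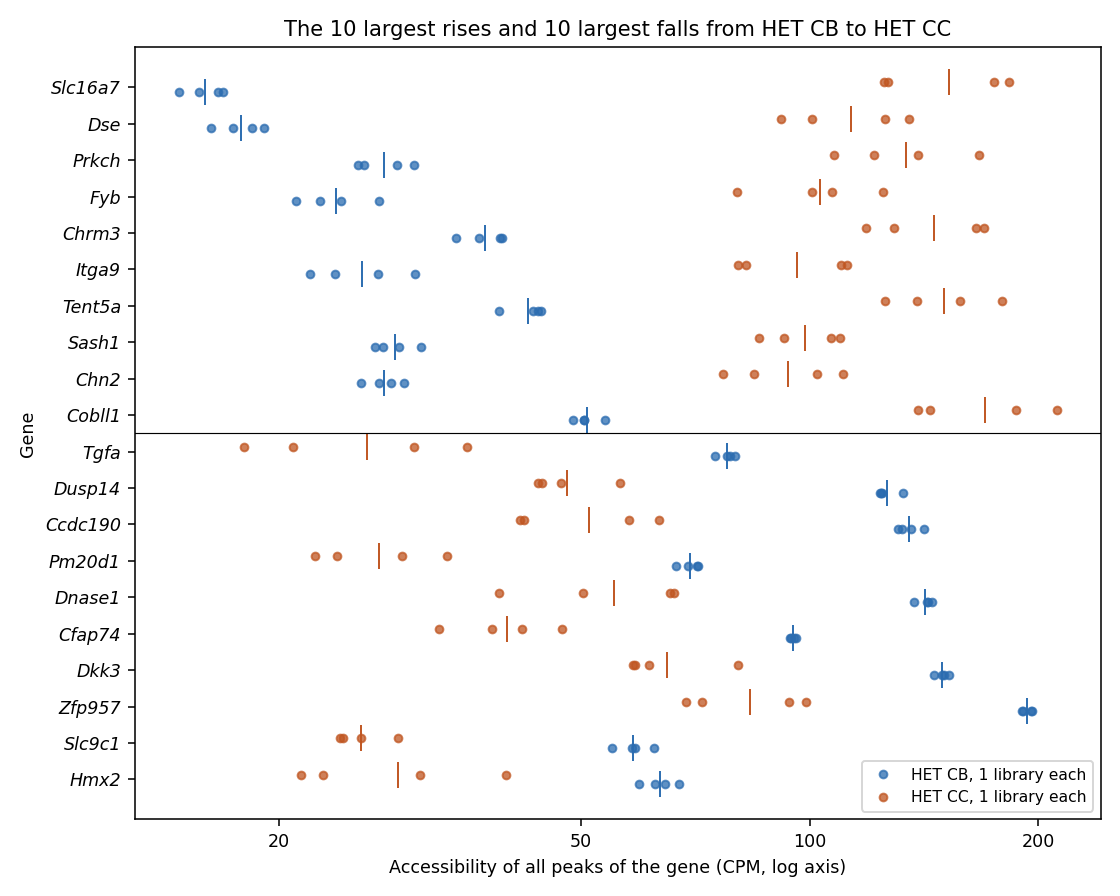
Accessibility of each gene (CPM summed over its peaks, log axis) in the 4 HET CB and 4 HET CC libraries, points being libraries and ticks the mean of 4, for the 10 largest rises and 10 largest falls among called genes of above-median accessibility without overlapping values. Slc16a7 moves from 15.97 to 153 CPM on average and Tgfa from 77.7 to 26.1.

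Single peaks changed more than genes. The largest rise among the peaks chosen by the same rule lay 59 bp from the start site of Arrdc4 (chr7:68749047-68749547, mm10). Arrdc4 encodes an alpha-arrestin that curbs glucose uptake. The peak had 1.90, 1.49, 1.57 and 1.41 CPM in CB and 31.2, 23.6, 27.3 and 19.6 in CC. The difference was 15.9-fold (log2 3.99, SE 0.15, adjusted p = 3.6e-19). This peak was nearly closed in every CB library and open in every CC library. Next came 3 peaks of Slc16a7 (log2 3.45, 3.33 and 3.04). Others were 1 inside Selp, which encodes P-selectin (3.17), and 1 inside Abcb1a, which encodes a P-glycoprotein drug pump (3.06). The same rule applied to peaks near gene ends alone added 1 that lay 591 bp from a start site of the ETS factor gene Etv1 (3.00). The deepest fall was at an intergenic peak 76260 bp from Gm4606 (chr14:72939503-72940003), with 30.1, 24.1, 27.7 and 25.5 CPM in CB and 3.45, 4.78, 2.27 and 4.52 in CC (log2 -2.79, SE 0.15, adjusted p = 4.15e-16). Further falls lay inside Suclg2, a subunit of succinate-CoA ligase (-2.77), 9381 bp from Malt1, the paracaspase of antigen receptor signaling (-2.76), and 10211 bp from Prps2, an enzyme of nucleotide synthesis (-2.40). The others were 126914 bp from Nebl, an actin-binding protein (-2.28), and inside Deup1, a centriole protein (-2.28). The sum over the Malt1 locus was at 0.00 (adjusted p = 0.919). Near gene ends the deepest falls by the same rule were at Mnd1, a meiotic recombination factor (-1.92), and Zdhhc4, a palmitoyltransferase (-1.92).

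Promoter sequences are shown for the 3 largest changes in each direction among peaks of above-median accessibility without overlapping library values whose middle lies within 250 bp of a start site in the RefSeq promoter table (GRCm38.p6, the assembly that mm10 denotes). They let a reader see which letters stand in front of these genes, and they were chosen after the values had been seen. Each line gives the 250 bases before the start, 5′ to 3′ on the gene's strand, with matches to a set of transcription factor motifs in capitals. Arrdc4 (chr7:68749239-68749488, minus strand), Mitf (chr6:97806808-97807057, plus strand) and Dse (chr10:34207236-34207485, minus strand) were higher in CC.
Arrdc4: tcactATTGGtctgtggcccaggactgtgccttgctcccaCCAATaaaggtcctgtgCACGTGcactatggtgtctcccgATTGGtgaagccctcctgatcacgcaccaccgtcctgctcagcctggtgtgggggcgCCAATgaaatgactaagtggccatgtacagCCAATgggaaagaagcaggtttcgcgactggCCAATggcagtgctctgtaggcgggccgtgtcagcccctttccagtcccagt
Mitf: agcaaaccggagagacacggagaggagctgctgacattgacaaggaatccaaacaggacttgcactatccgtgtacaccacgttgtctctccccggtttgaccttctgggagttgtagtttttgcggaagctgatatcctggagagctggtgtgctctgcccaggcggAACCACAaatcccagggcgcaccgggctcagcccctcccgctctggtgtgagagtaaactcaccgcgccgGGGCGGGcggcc
Dse: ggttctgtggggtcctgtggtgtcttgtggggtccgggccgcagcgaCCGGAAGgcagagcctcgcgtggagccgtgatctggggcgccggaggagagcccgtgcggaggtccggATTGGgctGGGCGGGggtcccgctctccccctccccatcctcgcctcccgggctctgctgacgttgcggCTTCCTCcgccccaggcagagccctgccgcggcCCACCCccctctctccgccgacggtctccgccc
Tgfa (chr6:86194972-86195221, plus strand), Rnf183 (chr4:62434641-62434890, minus strand) and H1f10 (chr6:87981483-87981732, minus strand) were lower in CC.
Tgfa: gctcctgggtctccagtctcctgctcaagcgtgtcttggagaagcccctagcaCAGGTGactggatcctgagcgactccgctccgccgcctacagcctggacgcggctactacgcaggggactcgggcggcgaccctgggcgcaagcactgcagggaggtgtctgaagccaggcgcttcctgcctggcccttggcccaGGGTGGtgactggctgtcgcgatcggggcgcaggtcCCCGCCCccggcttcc
Rnf183: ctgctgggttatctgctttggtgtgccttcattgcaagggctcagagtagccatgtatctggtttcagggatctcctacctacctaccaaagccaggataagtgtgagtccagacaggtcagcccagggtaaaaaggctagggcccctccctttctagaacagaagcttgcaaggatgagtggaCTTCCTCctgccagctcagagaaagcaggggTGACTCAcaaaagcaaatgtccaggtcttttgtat
H1f10: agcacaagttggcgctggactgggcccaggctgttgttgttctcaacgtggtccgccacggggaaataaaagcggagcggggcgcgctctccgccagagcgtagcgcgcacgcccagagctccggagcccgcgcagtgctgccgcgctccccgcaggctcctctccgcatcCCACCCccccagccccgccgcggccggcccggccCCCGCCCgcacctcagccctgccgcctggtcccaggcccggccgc
The Arrdc4 promoter carries CCAAT boxes, the motif of the factor NF-Y, at 6 places, and 1 E box of the form CACGTG, which MYC, USF and MondoA bind. The start peak of Mitf, a basic helix-loop-helix factor, had 4.47, 3.72, 4.30 and 3.95 CPM in CB and 20.03, 19.6, 20.8 and 21.8 in CC (5.01-fold, log2 2.32, SE 0.12, adjusted p = 2.84e-16). That of Dse rose 4.97-fold. The start peak of Tgfa fell by 1.47 on the log2 scale (SE 0.14, adjusted p = 2.63e-10), that of Rnf183, a ubiquitin ligase, by 1.46 (SE 0.15, adjusted p = 1.21e-09), and that of H1f10, a linker histone, by 1.44 (SE 0.17, adjusted p = 1.5e-08). The Tgfa promoter holds 1 E box of the form CAGGTG, the site of E proteins, and the Rnf183 promoter 1 AP-1 site.

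The same motifs were counted, on both strands and with overlaps between motifs allowed, in the 250 bases before 21263 tabled start sites. A peak lay at 9548 of them, of which 3502 had a peak higher in CC, 2192 one lower in CC and 3854 one not called. The E box CAGGTG stood before 12.0% of start sites that were higher in CC, 438 of the 2192 that were lower, 15.3% of all with a peak and 16.9% of all tabled. CCAAT stood before 41.3%, 32.0%, 37.3% and 35.4%, in the same order. The ETS motif CCGGAAG stood before 12.6%, 17.2%, 15.3% and 9.0%. No test of these differences was run. The PU.1 motif GAGGAAG stood before 11.9% and 8.9% of higher and lower start sites and the GC box GGGCGGG before 1750 of 3502 and 1013 of 2192. The shares lay closer together for CCACCC (34.0% and 32.4%), CACGTG (8.9% and 8.9%), AP-1 as TGANTCA (3.9% and 3.9%), the CRE TGACGTCA (2.7% and 3.1%), the octamer motif ATGCAAA (3.1% and 4.3%) and the NF-kB motif (8.3% and 9.0%). The median GC content was 61.2% in both classes. Among start sites whose peak changed 2-fold or more, 513 higher and 83 lower, CAGGTG stood before 72 of the higher and 26 of the lower (31.3%), CCAAT before 27.1% and 41.0% and the ETS motif before 3.7% and 3.6%. The GC box stood before 34.1% and 54.2% and CCACCC before 36.3% and 39.8%. PU.1 stood before 14.8% and 4.8% and the octamer motif before 3.1% and 10.8%. For CCAAT, the GC box and CCACCC the order was thus the opposite of that among all called start sites, and the ETS shares were about equal. The octamer shares lay further apart than among all called start sites. Median GC content was 57.2% and 63.6% in these smaller sets. A match is a string of letters and was not tested as a binding site.

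The Smarca4 locus itself was less accessible in CC. Its 9 peaks summed to 177, 181, 177 and 176 CPM in the CB libraries and 140.3, 157, 165 and 157 in the CC libraries (log2 -0.20, SE 0.045, adjusted p = 0.000576). The CC libraries all lay below the CB libraries. The change held opposite parts. A peak 96 bp from the gene end rose from 36.5 CPM to 58.3 (log2 0.66, SE 0.070, adjusted p = 1.02e-09), while 4 peaks between 7440 and 11458 bp inside the gene fell, the deepest from 42.2 to 17.1 CPM (log2 -1.26, SE 0.10, adjusted p = 2.96e-12). The extent of the allele was not stated in the sources used here, and both groups carry the same allele, so these values do not check the genotype.

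Several loci of germinal center genes were mixed in the same manner. Bcl6, the repressor that sets the germinal center state, had 142, 143, 141 and 146 CPM in CB and 156, 148, 181 and 154 in CC, a small rise (log2 0.15, SE 0.050, adjusted p = 0.0095) that did not pass without HET CC replicate 3 (log2 0.09, adjusted p = 0.0554) or after thinning (adjusted p = 0.0625). Its peaks 239 and 748 bp from the gene end rose by 0.64 and 0.62, and 3 flanking peaks were at -0.99, -0.33 and -0.71, all called lower. Cxcr4, the receptor that holds centroblasts in the dark zone, had 602, 597, 601 and 586 CPM in CB against 482, 470.1, 473 and 438 in CC (log2 -0.36, SE 0.033, adjusted p = 6.65e-09). Of its 32 peaks 22 were lower and 5 higher.

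Cd86, a costimulatory ligand of light zone cells, was lower in CC, at 305, 309.9, 308 and 316 CPM in CB and 194, 206, 195 and 218 in CC (log2 -0.61, SE 0.040, adjusted p = 3.14e-11). The 13 peaks that fell lay inside the gene, 9020 to 39179 bp from its ends. The peak 334 bp inside the end was at -0.01 (adjusted p = 0.912). S1pr1, the receptor for exit into the blood, had 13 peaks higher and 5 lower of 25. An intergenic peak went from 0.786 CPM to 6.43 (log2 3.02, SE 0.28, adjusted p = 5.53e-11). The sum rose by only 0.15 (SE 0.043, adjusted p = 0.00392), and with peaks of S1pr1 within 10 kb alone it was at 0.10 (adjusted p = 0.167). Cd83, another light zone marker, had 372, 377, 365 and 379.6 CPM in CB and 393, 369, 358 and 359 in CC. The groups overlapped, and its log2 change of -0.01 did not pass (SE 0.035, adjusted p = 0.734). With scaling factors that follow mean accessibility, an alternative added after the data were seen, Cd83 passed as higher in CC (log2 0.12, adjusted p = 0.00451). Of these surface markers, by which centroblasts and centrocytes are often told apart, Cxcr4 was lower in CC, the direction known for centrocytes, Cd86, known as high on centrocytes, was also lower in CC, and the call for Cd83 depended on the scaling. The Cd86 locus thus went against the direction known for centrocytes. Accessibility at a locus is not the amount of protein on the cell.

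**Figure D3:**
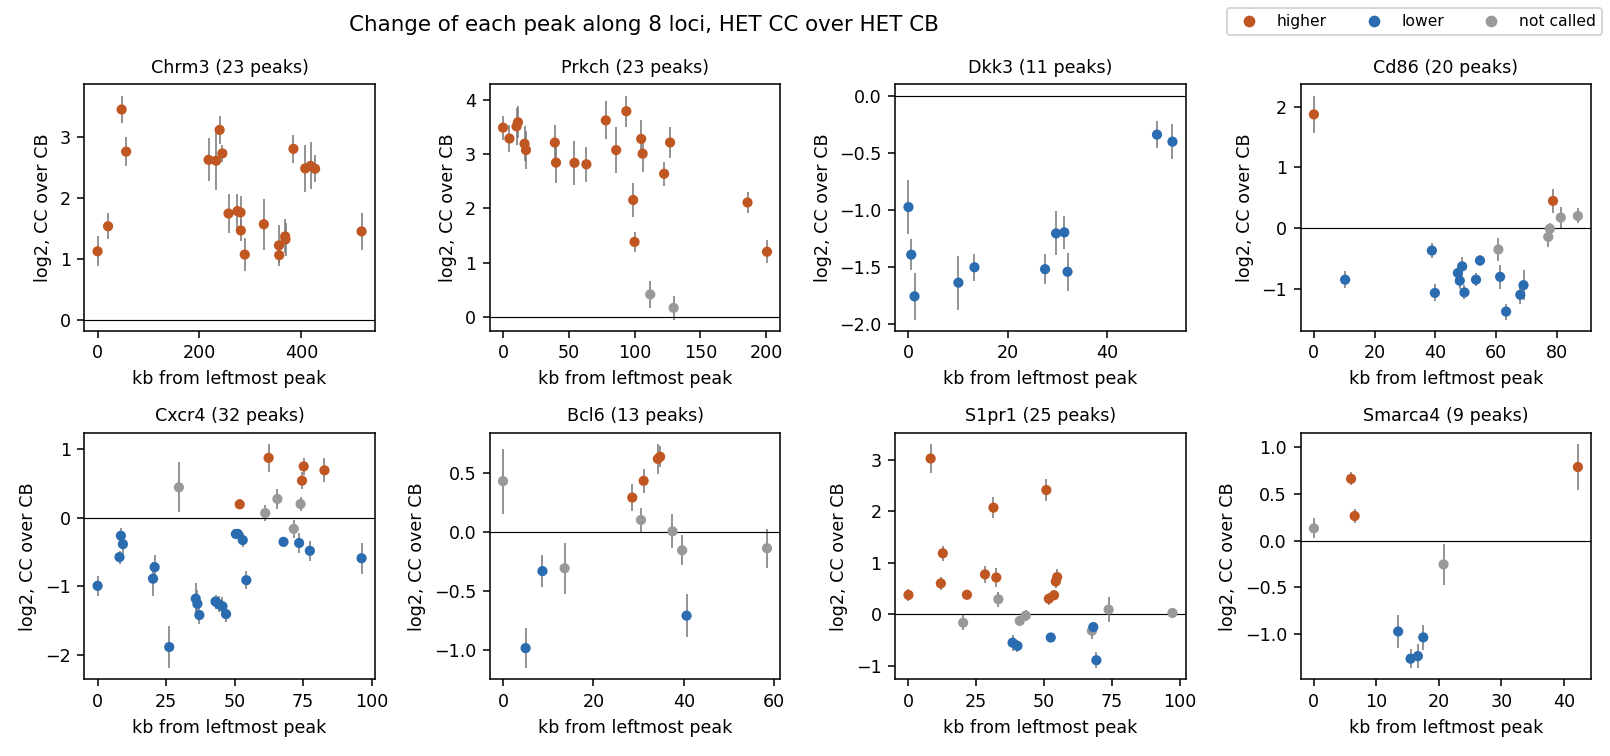
Change of each peak (log2 of HET CC over HET CB, error bars are the SE of the fit) along 8 loci, by distance in kb from the leftmost peak. All 23 peaks of Chrm3 and 21 of 23 of Prkch are higher, all 11 of Dkk3 are lower, and Cd86, Cxcr4, Bcl6, S1pr1 and Smarca4 hold peaks of both directions.

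Gene groups were read against the share of all genes called, 31.6% higher and 32.4% lower, with a median log2 change of 0.00. The lists share some genes, so their counts are not separate. Most loci of germinal center identity fell: 13 of 17 loci were lower and 3 higher (median -0.34). Gcsam, an adaptor that limits the movement of germinal center B cells, had 175, 170.4, 178 and 176 CPM in CB and 76.7, 96.9, 71.6 and 114 in CC (log2 -0.95, SE 0.092, adjusted p = 3.1e-07). S1pr2, which confines cells to the follicle, had 133, 140.1, 140.5 and 139 CPM in CB and 62.5, 81.5, 65.9 and 82.9 in CC (log2 -0.90, SE 0.065, adjusted p = 1.34e-10), with 5 of 5 peaks lower. Gna13, the G protein subunit that acts below S1pr2, fell by 0.44 (SE 0.035, adjusted p = 6.04e-10). All 3 were lower in each CC library than in any CB library. The rises were Arhgef1, a guanine nucleotide exchange factor that acts with Gna13 (0.51), Bcl6, and Bach2, a repressor of plasma cell fate (0.11), whose call was lost after thinning (log2 0.09, adjusted p = 0.0573).

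The zonal programs were less uniform. In the dark zone program 9 of 15 loci were lower and 2 higher (median -0.15). With scaling that follows mean accessibility, 7 were lower and 4 higher (median -0.1). Ccnb2, a mitotic cyclin, fell by 0.68 (SE 0.076, adjusted p = 8.53e-08), while Hmmr, a spindle protein, rose by 0.55. The other rise, Aurka, was small and its library values overlapped (log2 0.14, adjusted p = 0.0433). Its call was lost with a replicate block (adjusted p = 0.0806) and without any of several single libraries. In the light zone program 11 of 24 loci were higher and 7 lower (median 0.07). Ccnd2, a cyclin of growth factor response, rose from 118 CPM to 183 (log2 0.63, SE 0.054, adjusted p = 2.07e-09) and Rel, an NF-kB subunit, from 169 CPM to 223 (log2 0.40). The costimulatory receptor Cd40 fell from 106 CPM to 67.2 (log2 -0.65, SE 0.064, adjusted p = 1.45e-08), in the same direction as Cd86.

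In the lists of B cell receptor signaling and antigen presentation more loci were lower than higher. In B cell receptor signaling 20 of 31 loci were lower and 2 higher (median -0.25). Rasgrp3, an activator of Ras, had 598, 594, 613 and 584 CPM in CB and 409, 432, 408 and 422 in CC (log2 -0.51, SE 0.032, adjusted p = 1.67e-11). Bcl10, an adaptor of NF-kB activation, rose by 0.29 (SE 0.039, adjusted p = 1.11e-06). Of 20 members of the antigen presentation and costimulation list 11 had a peak, 9 were lower and 0 higher (median -0.39). The MHC class II genes and Tap1 and Tap2 are among those without a value. The ligands Cd80 and Cd86 fell by 0.68 and 0.61, Cd274, which encodes PD-L1, by 0.43 and Ciita, the MHC class II activator, by 0.11. B2m, the light chain of MHC class I, was at 0.09 (adjusted p = 0.157), and at 0.13 (adjusted p = 0.0469) with scaling from peaks near gene ends.

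Among transcription factors the families went different ways. In the KLF and SP family, zinc fingers that bind GC-rich DNA and several of which hold lymphocytes quiescent, 15 of 16 loci were higher and 0 lower (median 0.33). Klf3 had 45.9, 45.4, 47.3 and 45.3 CPM in CB and 117, 86.99, 108 and 80.95 in CC (log2 1.09, SE 0.082, adjusted p = 1.69e-09). Klf6 rose by 0.60 and Klf2, a regulator of lymphocyte traffic, by 0.53 (SE 0.053, adjusted p = 2.3e-08), while Klf9 was at -0.06 (adjusted p = 0.25). With accessibility-dependent scaling the counts were 15 and 0 (median 0.39).

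In the list of B cell identity factors 17 of 23 loci were lower and 4 higher (median -0.22). With accessibility-dependent scaling 11 were lower and 6 higher, and the median was -0.06. Ebf1, a founder of the B lineage, had 642, 637, 631 and 646 CPM in CB and 461, 485, 477 and 490.4 in CC (log2 -0.42, SE 0.031, adjusted p = 2.07e-10). Id3, an inhibitor of E proteins, fell by 0.47, a change that was 0.01 with peaks within 10 kb alone. Ikzf2, which encodes Helios, went the other way, from 6.78 CPM to 38.6 (log2 2.52, SE 0.13, adjusted p = 9.81e-13). For ETS factors 4 of 16 loci were higher and 7 lower (median -0.01), a balance that turned to 8 and 4 (median 0.15) with accessibility-dependent scaling. Gabpa rose by 0.49 and Etv5 by 0.39, and Etv6 fell by 0.38 and Elk3 by 0.31 on the log2 scale. With peaks within 10 kb alone, Elk3 was at -0.08 (adjusted p = 0.0957).

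Of the NF-kB subunits and feedback genes 12 of 21 loci were higher and 5 lower (median 0.16). Bcl3, a nuclear cofactor, rose from 131 CPM to 206 (log2 0.66, SE 0.042, adjusted p = 2.53e-11), Traf2, a receptor adaptor, by 0.50 and Birc3, a ubiquitin ligase, by 0.43. Nfkb1 fell by 0.30 and Traf1 by 0.21. In the AP-1 family 5 of 16 loci were higher and 7 lower (median -0.18). Jun had 251, 249.9, 252 and 252 CPM in CB and 432, 348, 351 and 339 in CC (log2 0.55, SE 0.054, adjusted p = 6.95e-08), with replicate 1 of CC above the others. Bach1 rose by 0.47, while Mafk fell by 0.43 and Atf3 by 0.39. With peaks within 10 kb alone, Atf3 was at -0.12 (adjusted p = 0.0712).

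The fates open to centrocytes were represented by a memory and a plasma cell list. In the memory B cell list 11 of 19 loci were higher and 5 lower (median 0.15). Ski, a repressor of TGF-beta signaling, had 97.96, 103, 98.2 and 107 CPM in CB and 208, 184, 208 and 179 in CC (log2 0.93, SE 0.051, adjusted p = 2.48e-12). Bcl2, a survival factor, rose by 0.43. Nt5e, which encodes CD73, fell by 0.81 and Cd80 by 0.68, both surface markers of memory cells. In the plasma cell list 9 of 18 loci were lower and 4 higher (median -0.17). Prdm1, which encodes the plasma cell regulator Blimp-1, had 126, 125, 122 and 123 CPM in CB and 167, 149.9, 166 and 146 in CC (log2 0.34, SE 0.046, adjusted p = 1.97e-06), with 8 of 13 peaks higher and 0 lower. Creb3l2, a secretory pathway factor, rose by 0.46, whereas Slamf7, a surface receptor, fell by 0.71 and Mzb1, a chaperone, by 0.68.

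In the egress and positioning list 6 of 21 loci were higher and 8 lower (median 0.04). The integrin subunit gene Itga4 rose by 0.34, and S1pr2 and the chemokine receptor Cxcr3 fell, the latter by 0.75 (SE 0.070, adjusted p = 6.6e-09). Of the motility and GTPase regulators 10 of 25 loci were higher and 8 lower (median -0.03), with Rgs16, an inhibitor of G protein signals, at 0.73 and Dock8, a Cdc42 activator, at -0.48. In the apoptosis list 9 of 26 loci were higher and 8 lower (median -0.03). Bcl2 and Birc3 rose, and the death promoters Bcl2l11, which encodes BIM, and Bmf fell, by 0.62 (SE 0.039, adjusted p = 1.8e-11) and 0.43.

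In the cell cycle list 10 of 32 loci were higher and 14 lower (median -0.07), with Ccne1, a cyclin of S phase entry, at 0.48 and Cdk6, a G1 kinase, at -0.36. In the MYC network and biomass list 6 of 24 loci were higher and 8 lower (median 0.00). With accessibility-dependent scaling the balance turned in both lists, to 13 higher and 12 lower (median -0.03) for the cell cycle and to 10 and 6 (median 0.06) for the MYC network. In hypermutation and switch repair 10 of 19 loci were lower and 1 higher (median -0.21). Rev1, a translesion polymerase, fell by 0.51 and Parp1, a sensor of DNA breaks, by 0.43, and Rev3l, the catalytic subunit of polymerase zeta, rose by 0.30. In the BAF complex 14 of 28 loci were lower and 5 higher (median -0.16), or 12 and 8 (median -0.06) with accessibility-dependent scaling. Dpf1 and Ss18l1, known as neuronal subunits, fell by 0.67 and 0.56. The actin-like subunit gene Actl6a rose by 0.43, and Smarca2, the other ATPase of the complex, by 0.20 (SE 0.036, adjusted p = 4.56e-05).

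Of the histone and DNA modifiers 6 of 21 loci were higher and 6 lower (median 0.09), or 9 and 5 (median 0.12) with accessibility-dependent scaling, with Eed, a Polycomb subunit, at 0.38 and Hdac7, a deacetylase, at -0.22. In the interferon response 8 of 20 loci were higher and 2 lower (median 0.19). The antiviral genes Rsad2 and Oas3 rose by 1.20 (SE 0.12, adjusted p = 2.35e-08) and 1.00, and Ifi35 fell by 0.55. Of the cytokine receptors 9 of 23 loci were higher and 5 lower (median -0.03). Il18r1, a subunit of the interleukin 18 receptor, rose from 3.93 CPM to 24.2 (log2 2.62, SE 0.15, adjusted p = 4.91e-12), Ifngr1, of the interferon gamma receptor, by 0.63, and Il2ra fell by 0.29.

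**Figure D4:**
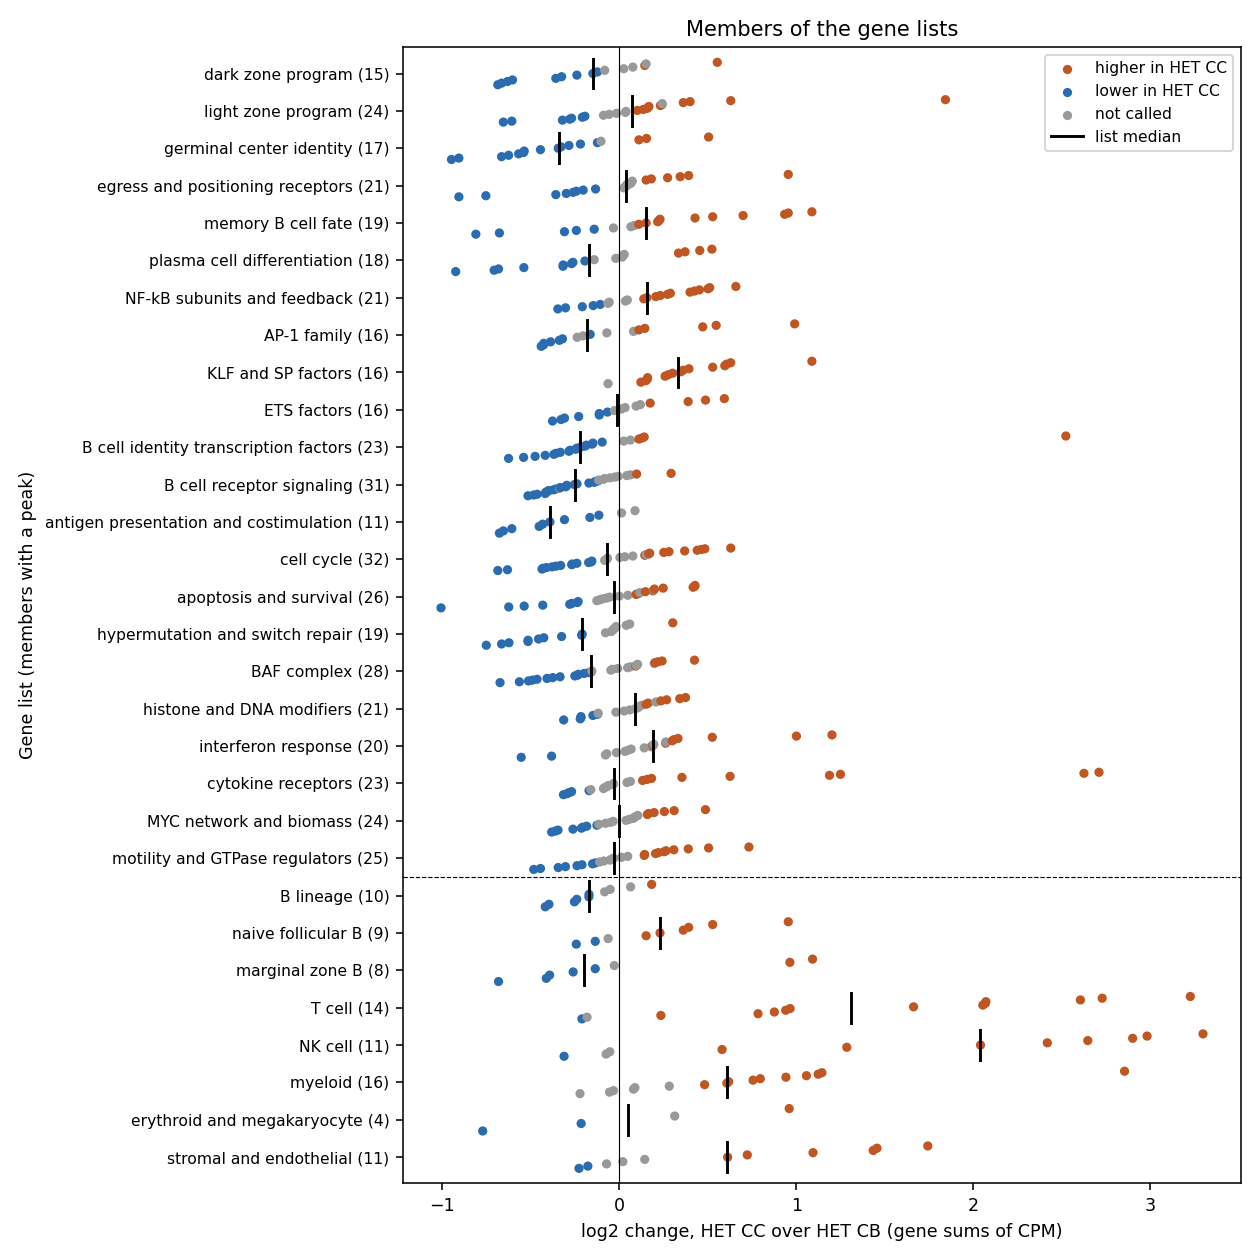
Log2 change of HET CC over HET CB (x axis) for each member with a peak of the 22 gene lists (above the dashed line) and 8 lists of cell type markers (below it), points colored by call and bars giving the list median. KLF and SP factors lie almost wholly above 0 (median 0.33), antigen presentation (-0.39) and germinal center identity (-0.34) mostly below, and T cell (1.31) and NK cell markers (2.04) furthest above.

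Markers of other cells moved as well. In bulk ATAC-seq a change in the mix of cells and a change of accessibility within a cell cannot be told apart. Of the B lineage markers 6 of 10 loci were lower and 1 higher (median -0.17), and their sum was 1964 to 1981 CPM in CB and 1626 to 1707 in CC. Cd79a, part of the B cell receptor, was at 0.06 (adjusted p = 0.342). Of the naive follicular markers, which germinal center cells shed, 6 of 9 loci were higher and 2 lower (median 0.23), with sums of 1377 to 1397 CPM in CB and 1467 to 1699 in CC. Of the marginal zone markers 5 of 8 loci were lower and 2 higher (median -0.20), with sums of 1247 to 1277 and 1083 to 1143 CPM, and Cd1d1 at 1.09 and Cd36 at 0.96 were the rises. Of the erythroid and megakaryocyte markers 2 of 4 loci were lower and 1 higher (median 0.05).

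Of the T cell markers 12 of 14 loci were higher and 1 lower (median 1.31), and of the NK cell markers 8 of 11 loci were higher and 1 lower (median 2.04). Their levels were low: the median locus had 10.9 CPM in CB and 25.2 in CC for T cells and 3.11 and 16.7 for NK cells, against 44.4 and 42.8 over all genes. Of the T cell loci 6 and of the NK cell loci 7 lie in the lowest quintile of genes, the least accessible, in which 47.6% of all genes were higher. Tcf7, a T cell factor, had 29.5, 29.9, 31.4 and 29.8 CPM in CB and 104, 89.6, 113 and 77.8 in CC (log2 1.66, SE 0.081, adjusted p = 1.49e-12). Cd3e, a chain of the T cell receptor complex, had 1.74, 2.48, 2.01 and 2.11 CPM in CB and 8.09, 10.7, 7.87 and 8.19 in CC (log2 2.07). Cd4 was at -0.18 (adjusted p = 0.256), and Cd247, the zeta chain, fell by 0.21. Klrk1, an activating NK receptor, went from 2.21 CPM to 16.5 (log2 2.90, SE 0.16, adjusted p = 3.6e-12). The NK markers Tbx21 and Klrb1c were far more accessible in CB and did not rise. Tbx21 fell from 39.2 CPM to 31.7 (log2 -0.31, adjusted p = 0.00102). Klrb1c had 175 CPM in CB and 168.5 in CC (log2 -0.05, adjusted p = 0.257). No value was obtained for Cd28, Ctla4, Icos and Lck.

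Summed over the list, T cell markers had 387 to 396 CPM in CB and 539 to 637 in CC, and NK cell markers 279 to 283 and 335 to 352. Myeloid markers had 511 to 521 and 651 to 727 CPM, and stromal and endothelial markers 298 to 314 and 359 to 390.2. The ranges did not overlap in any of these 4 lists. Of the myeloid markers 10 of 16 loci were higher and 0 lower (median 0.61), with the signaling adaptors Fcer1g at 2.85 and Tyrobp at 1.14. The myeloid markers Fcgr3 (log2 -0.05, adjusted p = 0.425) and Cd68 (log2 -0.22, adjusted p = 0.0991) were not called. Of the stromal markers 6 of 11 loci were higher and 2 lower (median 0.61). Accessibility-dependent scaling gave 12 higher and 1 lower for T cells, 7 and 1 for NK cells, 9 and 0 for myeloid cells and 5 and 0 for stromal cells. These markers moved in the same libraries in which Ikzf2, Il18r1, Rsad2 and Klf3 rose. The largest rises, such as Slc16a7, Fyb, Prkch and the peaks inside Selp and Abcb1a, were in these libraries too. Their part in those results was not tested.

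The change from CB to CC was also compared between the genotypes, with all 16 libraries in one fit. It differed at 131 of 82188 peaks (0.159%) and 62 of 15051 genes (0.412%), or at 29 peaks and 70 genes with a replicate block. In 53 genes (0.352%) the change in HET lay above that in WT and in 9 (0.0598%) below. Of the 53, 50 fell in both genotypes by the sign of the change, and less in HET. All 9 genes below WT rose in both by sign, and less in HET. The differences called therefore lay mainly where HET CC had moved less far from CB than WT CC had.

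**Figure D5:**
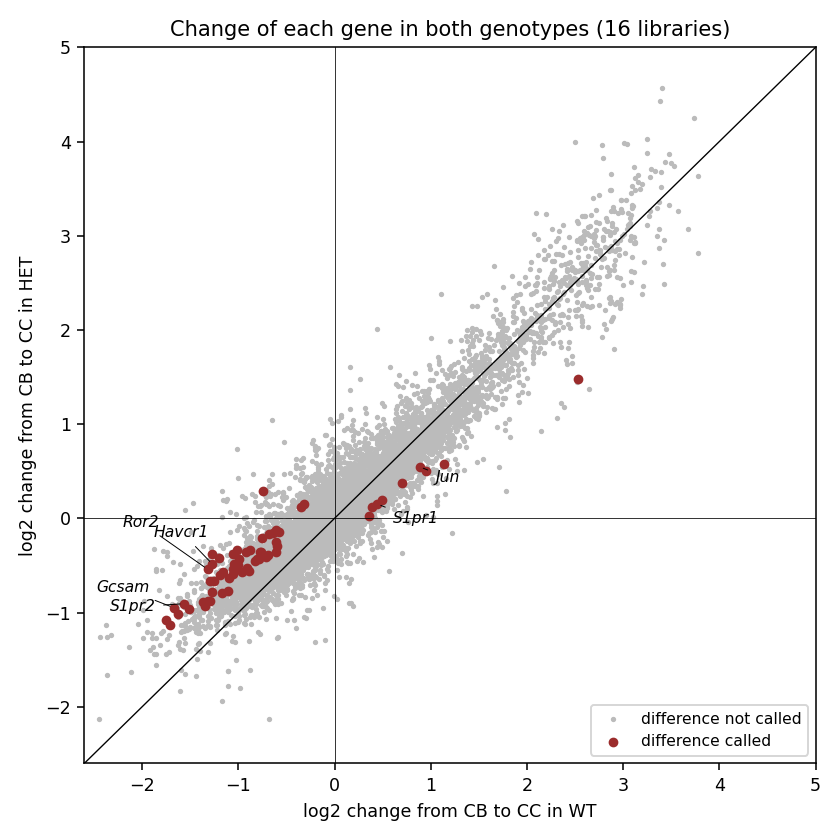
Log2 change from CB to CC of 15047 genes in WT (x axis) and HET (y axis), both from the fit of 16 libraries, with the line of equal change and the genes whose difference was called marked in color. Most marked points lie left of 0 and above the line, and 2 genes lie outside the axes.

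Loci of germinal center identity were among them, with 5 of 17 above WT and 0 below. Gcsam fell by 0.95 on the log2 scale in HET and by 1.67 in WT (difference 0.73, SE 0.13, adjusted p = 0.00758). S1pr2 fell by 0.91 in HET and 1.57 in WT (difference 0.66, SE 0.13, adjusted p = 0.0133). Fas, a death receptor (difference 0.51), and Nuggc, a nuclear GTPase of germinal center B cells (0.39), were also above WT. Whether the differences of S1pr2, Fas and Nuggc held in the alternative runs was not checked. Outside the lists, Havcr1, which encodes TIM-1, had 71.3, 70.03, 73.2 and 72.5 CPM in HET CB and 49.4, 58.4, 42.5 and 53.1 in HET CC, a fall of 0.49 against 1.27 in WT (difference 0.78, SE 0.11, adjusted p = 2e-04). Ror2, a Wnt receptor, fell by 0.54 and 1.32 (difference 0.78, SE 0.12, adjusted p = 0.000779), C8a, a complement component, by 1.08 and 1.75 (difference 0.68) and Atp10b, a lipid flippase, by 0.38 and 1.06 (difference 0.68). The C8a call was lost after thinning (adjusted p = 0.0753), without HET CC replicate 2 (adjusted p = 0.0935) and without WT CC replicate 2 (adjusted p = 0.0642).

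In the other direction, Jun rose by 0.55 in HET and 0.89 in WT (difference -0.34, SE 0.070, adjusted p = 0.0153) and S1pr1 by 0.15 and 0.44 (difference -0.29, SE 0.063, adjusted p = 0.0212). Yipf6, a Golgi protein, differed by -0.33, Ube2d1, a ubiquitin-conjugating enzyme, by -0.33 and Zc3hav1, an antiviral RNA-binding protein, by -0.29. Each of these 5 calls was lost after thinning and without at least 1 single library. With the replicate block those of Yipf6 (adjusted p = 0.0626) and Ube2d1 (adjusted p = 0.0834) were lost as well. Klf2 rose by 0.53 and 0.84, which did not pass (difference -0.31, SE 0.086, adjusted p = 0.0902). Smarca4 fell by 0.20 and 0.21 (difference 0.01, SE 0.073, adjusted p = 0.964). The number of genes called depended on single libraries. It was 228 without HET CC replicate 1 and 220 without HET CC replicate 3, but 15 without HET CC replicate 2, 24 without HET CC replicate 4 and 28 without WT CC replicate 2. Without any 1 of the HET CB libraries it was 27 to 39, and without any 1 of the WT CB libraries 30 to 39. After thinning of all 16 libraries to the smallest, 14 genes and 1 peak were called. HET CC libraries were deeper than WT CC libraries, which held 3494356 to 3750936 counts.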

How the data were processed

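Omni-ATAC read counts per peak were deposited by the authors for 82188 peaks of 501 bp in 16 libraries, 4 per genotype and cell label. Per the submitters' processing notes, the tools were BWA, FastQC, deepTools and R 4.2.1, with the build mm10. The peak caller was not stated in the sources used here. The counts were used as deposited, and intervals and tests treat PCR copies as counted, since no molecular identifiers are described.

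Peaks were assigned to the nearest protein-coding gene within 50 kb by the RefSeq gene table of GRCm38.p6, which gives no strand, so either gene end was used. In all, 74773 peaks fell to 15051 genes. Tests used edgeR 4.0.16 in R 4.3.3 (TMM, filterByExpr, robust quasi-likelihood fit, Benjamini-Hochberg adjustment, threshold 0.05). The 8 HET libraries were fitted alone, and the difference between genotypes on 16. On simulated counts for HET CC against HET CB, 84.8% of peaks changed 2-fold, 47% of those changed 1.5-fold and 13.2% of those changed 1.25-fold were recovered, with 6 of 82132 peaks called falsely. For genes these shares were 92.4%, 86.4% and 67.6%. Beside the 61, 57 and 46 changed genes recovered, 16 of 15047 genes were called falsely, a share of the calls above the threshold of 0.05. The simulation changed 200 features and gave both groups the same dispersion. In the data most features were called, and the biological coefficient of variation over peaks was 5.6% in CB and 15.2% in CC. The simulated rates therefore do not cover that setting.

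Named genes and peaks were the largest changes in each direction among calls of above-median accessibility without overlapping values, up to 2 members of each list in each direction by p, 8 fixed genes, and the largest differences from WT. Cd274, Ciita, Cd3e, Fas, Nuggc and Malt1 as a locus were added after their values were seen. A few members chosen in this way were left out of the text. The comparison and the gene lists were chosen with earlier results of these data known. Alternatives were DESeq2 1.42.0, other scalings and filters, thinning, a replicate block, other gene windows and leaving out each library. Scaling by a lowess curve along mean accessibility (span 0.3) was added after the data were seen.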

Additional observations from a re-analysis of the deposited data

Results flagged for a closer look

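In 14 of 308 groups of 4 libraries (4.55%), 1 library lay apart from the other 3 by Dixon's criterion, which chance alone gives in about 1 of 20 groups. Among HET CC libraries these were Dkk3 in replicate 4 (80.46 CPM, others 58.57 to 61.48), Cd40 in replicate 1 (54.62, others 70.44 to 72.43), Jun in replicate 1 (431.6, others 339.2 to 351.2) and Etv5 in replicate 1 (143.7, others 134.2 to 134.9). Cdk6 in replicate 4 had 405.6 CPM (others 351.0 to 353.8), Slc7a5, an amino acid transporter, in replicate 2 had 66.77 (others 54.44 to 55.55), the Etv1 peak in replicate 4 had 15.59 (others 21.58 to 22.34) and the Mnd1 peak in replicate 3 had 3.975 (others 5.704 to 5.924).

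Among HET CB libraries they were Dusp14 in replicate 4 (132.6 CPM, others 123.9 to 124.5), Id3 in replicate 3 (247.9, others 255.9 to 257.5), Smarca2 in replicate 2 (236.5, others 227.9 to 228.1) and Mxd4, a MYC antagonist, in replicate 2 (96.0, others 100.6 to 101.4). Cd37, a tetraspanin, in replicate 1 had 90.46 CPM (others 94.43 to 94.9) and Kdr, an endothelial receptor, in replicate 3 had 5.9 (others 4.006 to 4.28).

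The change from CB to CC differed between HET and WT, by the contrast over 16 libraries, for 11 of the named genes. The difference on the log2 scale was 0.78 for Havcr1, 0.78 for Ror2, 0.73 for Gcsam, 0.68 for C8a, 0.68 for Atp10b and 0.66 for S1pr2. It was -0.34 for Jun, -0.33 for Ube2d1, -0.33 for Yipf6, -0.29 for Zc3hav1 and -0.29 for S1pr1.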

How the results depend on the processing

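The counts of peaks called between HET CC and HET CB ranged from 35662 (thinned) to 49510 (DESeq2) and those of genes from 8167 (thinned) to 9820 (DESeq2), with 44546 to 48543 peaks and 8849 to 9529 genes when single libraries were left out. Total-count scaling gave 5229 genes higher and 4346 lower. Of 166 results for single genes and peaks that the rule selects, 141 kept direction and call in every alternative run. Cd83 changed sign with TMM from gene-end peaks (0.02), total counts (0.02), lowess scaling (0.12) and without HET CC replicate 3 (0.00). Further sign changes were Icosl without HET CC replicate 1 (-0.01) or 4 (-0.00), Id3 within 10 kb (0.01), Lig4 without HET CB replicate 4 (-0.00) or HET CC replicate 4 (-0.01), and Ube2d1 without HET CC replicate 3 (-0.01). Without single libraries, the log2 changes of these ranged from -0.04 to 0.00 for Cd83, -0.01 to 0.03 for Icosl, -0.01 to 0.07 for Lig4 and -0.01 to 0.05 for Ube2d1. The cause was not tested.

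The difference between genotypes was less stable. Peaks called numbered 131, against 29 with the replicate block, 270 with total counts, 1352 with DESeq2, 224 with at least 10 counts per library, 1 after thinning and 17 to 486 when single libraries were left out. Genes numbered 62, against 331 with DESeq2, 14 after thinning and 15 to 228 when single libraries were left out. Same-numbered HET CB and CC libraries correlated in their deviations at 0.034 to 0.062 over peaks, and 3 of 4 correlated best with their own number. Over genes the HET correlations were 0.036 to 0.071, and replicates 3 and 4 correlated better with another number. In WT the correlations were 0.069 to 0.112 over peaks and 0.109 to 0.15 over genes. Over genes all 4 WT replicates correlated best with their own number. These values do not decide whether the numbers are pairs. The main fits were unpaired because no label ties a number to an animal. With the replicate block 46203 peaks and 9255 genes were called between HET CC and HET CB, and the gene-end share, 2.12 percentage points, had an exact permutation p of 0.125, the smallest that 16 splits allow. The depth of the CC libraries limits what weakly accessible peaks can show.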
